A study of Mus musculus with 6 samples.

Results

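The genes described here are 38 members of the Wnt signalling pathway, namely 9 Wnt ligands, 10 receptors, 7 secreted inhibitors, 5 feedback regulators, 5 nuclear effectors and 2 growth targets. Of these, 37 had at least 1 probe set annotated to that gene alone, out of 18193 genes so represented on the array, and Tcf7 had none. The probe set of highest mean over the 6 arrays stood for each gene. The RNA came from primary cells of the ovarian surface epithelium (OSE, the cell layer that covers the ovary) of virgin FVB/N mice aged 8 weeks, with no transgene or deletion named in the labels. The cells were kept in culture for 24 hours, stained with ALDEFLUOR, whose fluorescence reports the activity of aldehyde dehydrogenase enzymes (ALDH), and sorted. From every one of the 3 independent pools, of 10 mice apiece, came an ALDH-positive and an ALDH-negative sample on separate Affymetrix mouse arrays. Values are log2 signal after quantile normalization, and a difference is the ALDH-positive value minus the ALDH-negative value of its pool.

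Wnt proteins are secreted lipid-modified ligands that bind Frizzled receptors together with the co-receptors Lrp5 and Lrp6. In the canonical branch, this stabilises beta-catenin (encoded by Ctnnb1), which enters the nucleus and activates targets with the Tcf and Lef factors, while other Wnt ligands act on cell polarity and calcium without beta-catenin. Secreted inhibitors of the Sfrp, Dkk and Wif families limit the ligands or the co-receptors, and targets such as Axin2, Nkd1 and Notum feed back on the pathway. In the mouse ovary, Wnt4 is required for female development of the gonad, and cells of the ovarian surface that respond to Wnt signals carry Lgr5, a receptor of the R-spondins.

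None of the 31 Wnt genes bright enough to be tested differed between the fractions at an adjusted p below 0.05 (limma with the pool as a block, Benjamini-Hochberg over 27022 probe sets), where 0.0% of all tested probe sets passed. The smallest unadjusted p values were those of Wnt9a (difference 1.71) and Myc (1.88), and the difference of Myc came from pool 2. At an unadjusted p below 0.05 there were 0 of the 31, against 2.45% of all tested probe sets. Ligands (Wnt4, Wnt5a, Wnt9a), all 10 receptors, the inhibitors Sfrp2, Sfrp4 and Dkk3, the 4 measured effectors and Axin2 were above background on each of the 5 arrays other than the ALDH-negative one of pool 2, while Dkk1, Dkk2, Wif1, Wnt2 and Notum were not above background on any array.

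In pool 2 the ALDH-negative array was unlike the rest, and every mean over 3 pools includes it. Its correlations with the remaining arrays were 0.20 to 0.42, against 0.72 to 0.96 among those 5. Background was read from 83 probe sets of olfactory, vomeronasal and taste receptor genes, taken as silent in these cells. Their 95th percentile was 2.92 to 3.39 on the ALDH-positive arrays and 2.58 and 3.04 on the ALDH-negative arrays of pools 1 and 3, but 5.78 on the ALDH-negative array of pool 2. A gene is called above background on an array where it exceeds that array's own limit. The Y-linked genes Kdm5d, Uty and Eif2s3y, absent from female mice, lay below the limit on every array. The 3' minus 5' signal of the Gapdh control, a measure of RNA integrity, was 1.00, 1.14 and 5.30 on the ALDH-positive arrays of pools 1 to 3. On the ALDH-negative ones it was 0.90, 2.15 and 3.59, so that pool 3 was the highest in both fractions. For the Actb control it was -0.28, -0.22 and 0.78 against -0.10, 0.22 and 0.98. Pool 3 was again the highest there, but by much less. Markers of the surface epithelium were higher in ALDH-positive cells in all 3 pools for 12 of 12 genes, with mean levels of 7.14 to 7.65 against 3.74 to 4.09, and 11 of the 12 were above background on all ALDH-positive arrays. Of the 7 markers of stroma, 6 were tested and 3 were higher in all pools (list means 5.46 to 5.77 against 3.67 to 4.84). Of 4 tested smooth muscle markers, Acta2 (difference 3.59) and Tagln (2.94) were higher in all pools without overlap (list means 4.83 to 5.02 against 3.48 to 4.82). The remaining tested ones, Myh11 (-1.05) and Des (-0.33), had negative means, or 0.07 and 0.62 without pool 2. Cnn1 was above background on no array. The 4 tested markers of theca and luteal cells (Cyp11a1, Star, Hsd3b1 and Fdx1) lay lower in ALDH-positive cells in pools 1 and 3 and higher in pool 2, with list means of 8.15, 8.13 and 7.76 against 8.58, 4.76 and 8.29 and a median difference of -0.67 without pool 2, and Cyp17a1 was above background on no array. Of 7 tested granulosa markers 0 were higher and 1 lower in all pools. Of all tested probe sets, 11.5% were higher and 10.8% lower in all pools. Among the 8 granulosa markers with a probe set, 7 were above background on all ALDH-positive arrays. On the ALDH-negative arrays of pools 1 and 3, 8 and 7 were. The list means were 6.44, 6.10 and 5.84 in ALDH-positive cells against 6.81, 4.60 and 6.14 in ALDH-negative cells. Among leukocyte, oocyte and oviduct markers, Itgam, Zp3, Bmp15, Oosp1, Zp2, Foxj1 and Pax8 were above background on no array. Cd3e and Krt5 were above it on every array. Csf1r was above it in both fractions of pools 1 and 3, at 8.06 and 8.18 in pool 3. Ptprc, Cd68, Lyz2, Gdf9 and Ovgp1 were above it on some arrays. Of the endothelial markers, Kdr was higher in ALDH-positive cells in all pools (difference 1.44, SE 0.72). Emcn, Tek and Tie1, below the filter and not tested, were lower in all pools, and Pecam1 and Cdh5 were mixed. The part of these markers in the values below was not tested, and in sorted bulk samples fewer cells of a type and less RNA per cell cannot be told apart.

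Sequences upstream of 3 pathway targets are shown because their signals, given further on, run from clearly above background (Axin2) through the limit (Sp5) to below it (Dkk1). Tcf and Lef factors bind a core that begins with CTTTG, and the letters CTTTGA and CTTTGT were searched on both strands in the 250 bases before each annotated start. Capitals mark these letters, on either strand. The sequences are RefSeq promoters of GRCm38.p6, written 5′ to 3′ on the strand of the gene, at chr11:108920099-108920348 (plus strand) for Axin2, chr2:70474673-70474922 (plus strand) for Sp5 and chr19:30549497-30549746 (minus strand) for Dkk1, and end at the base before the start of the transcript.
Axin2: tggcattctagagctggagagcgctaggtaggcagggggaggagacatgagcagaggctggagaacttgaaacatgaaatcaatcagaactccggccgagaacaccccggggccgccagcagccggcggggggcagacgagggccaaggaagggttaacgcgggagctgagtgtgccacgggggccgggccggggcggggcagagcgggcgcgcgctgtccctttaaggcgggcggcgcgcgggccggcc
Sp5: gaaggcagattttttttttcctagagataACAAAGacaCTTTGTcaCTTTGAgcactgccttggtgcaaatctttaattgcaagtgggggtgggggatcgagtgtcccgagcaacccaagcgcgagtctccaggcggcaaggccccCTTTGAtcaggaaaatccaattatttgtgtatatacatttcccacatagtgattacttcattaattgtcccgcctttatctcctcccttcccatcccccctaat
Dkk1: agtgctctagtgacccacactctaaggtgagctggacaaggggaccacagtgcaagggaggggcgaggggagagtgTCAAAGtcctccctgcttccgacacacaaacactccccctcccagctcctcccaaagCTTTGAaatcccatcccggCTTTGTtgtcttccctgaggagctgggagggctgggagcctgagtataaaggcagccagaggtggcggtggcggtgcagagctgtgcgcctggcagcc

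Promoters were found for 24 of the 38 genes, with 33 annotated starts. CTTTGA occurred before 6 of these starts, in Dkk1, Fzd1, Lef1, Sp5, Wnt11 and Wnt5b, and 13.8% of all 32851 promoters in the table hold it. CTTTGT occurred before 8 of them, and 16.5% of all promoters hold it. In Sp5 the CTTTGA cores begin 204 and 104 bases before the start, both on the strand of the gene. The Axin2 window holds neither string of letters, which says nothing of sites elsewhere in that gene. No marked core overlaps another in these windows, and a match of letters is a description only.

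Of the 37 genes, 27 were above background on all 3 ALDH-positive arrays, and the same 27 on the ALDH-negative arrays of pools 1 and 3. On the ALDH-negative array of pool 2 only 13 were, all of them among these 27. Apart from that array, 5 genes were above background on some arrays only, which were Wnt2b, Wnt6, Wnt7b, Sfrp1 and Sp5. By array, the number above background was 29, 30 and 27 in ALDH-positive cells of pools 1 to 3. In ALDH-negative cells it was 30, 13 and 27. Of all probe sets other than controls, 51.9%, 53.6% and 46.0% were above it on the ALDH-positive arrays. On the ALDH-negative arrays 59.6%, 17.1% and 51.5% were, so the low count in pool 2 went with a low share of the whole array. These shares count every probe set, while each Wnt gene is read by its brightest. With the stricter limit of the 99th percentile of the silent receptors, 17 genes were above it on all ALDH-positive arrays and 20 on the ALDH-negative arrays of pools 1 and 3. The first count covers more arrays than the second, so they are not to be compared. That limit was also 5.28 on the ALDH-positive array of pool 3, against 3.45 to 4.13 on the others counted here.

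**Figure D1:**
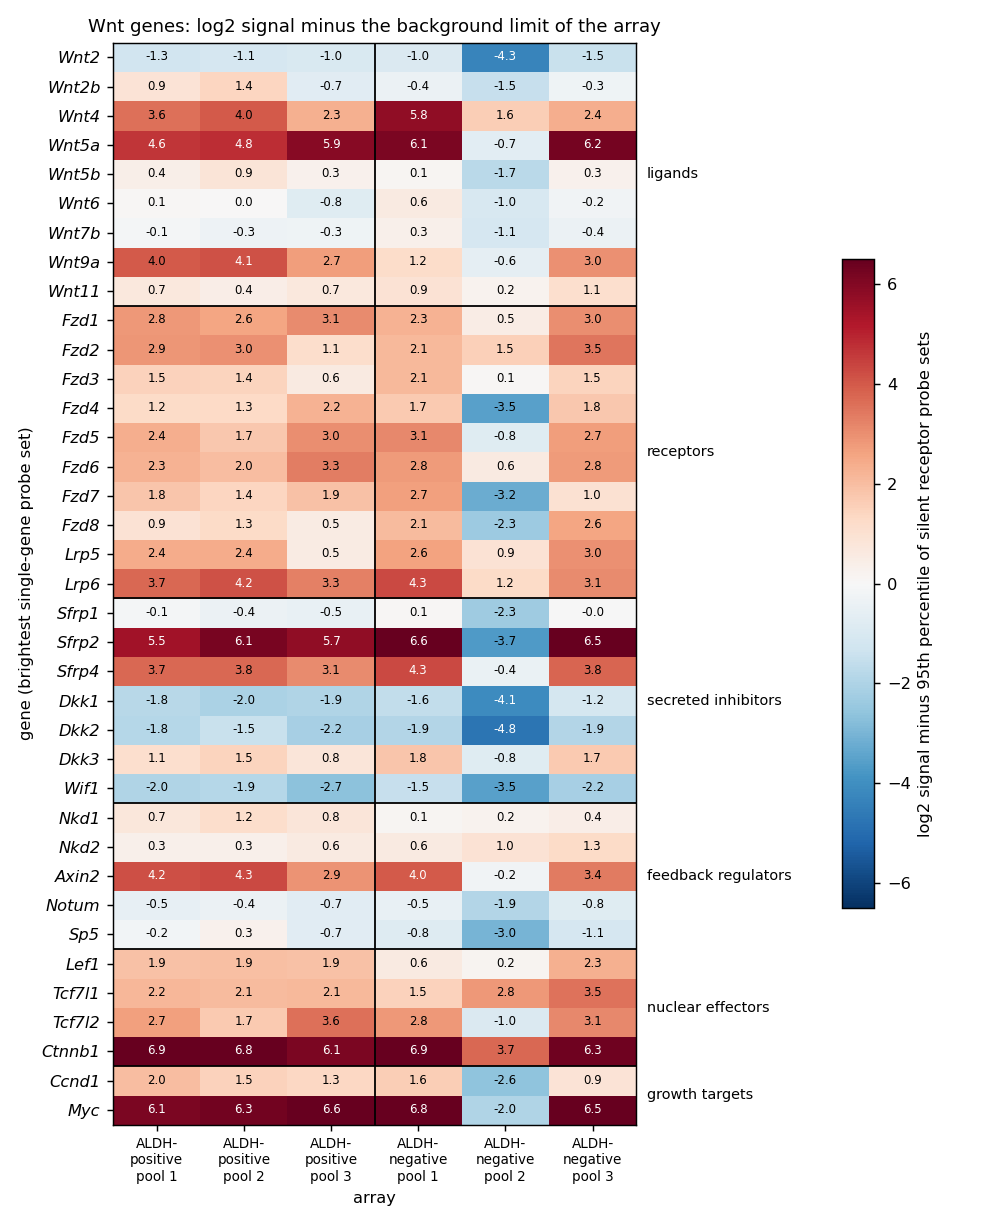
Log2 signal of 37 Wnt genes minus the background limit of the same array (the 95th percentile of 83 probe sets of silent receptors), for ALDH-positive and ALDH-negative cells of pools 1 to 3; red is above the limit and blue below it, and rows are not to be compared with each other since probe sets differ in brightness. The ALDH-negative array of pool 2 is the column with 13 genes above the limit, against 27 to 30 in the other columns. Of all probe sets other than controls, 17.1% were above the limit on that array, against 46.0% to 59.6% on the others.

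Among the ligands, Wnt9a, a canonical ligand known from joint and liver development, had the smallest unadjusted p of all 31 genes. It read 6.99, 7.05 and 6.09 in ALDH-positive cells of pools 1 to 3, against 3.78, 5.19 and 6.01 in ALDH-negative cells. Every ALDH-positive value lay above every ALDH-negative value, but the gap closed to 0.08 in pool 3. The mean difference was 1.71 (SE 0.79, n = 3 pools, 95% interval -0.13 to 3.55), a fold of 3.27, with an unadjusted limma p of 0.0639 and an adjusted p of 0.895. It was 1.64 without pool 2 and 0.97 without pool 1, so the size depended on pool 1. With no pool block, Wnt9a was the 1 gene at an unadjusted p below 0.05, where 1.54% of all tested probe sets were higher and 0.463% lower. A dimmer probe set of Wnt9a, below the filter, read 2.41, 2.23 and 2.65 in ALDH-positive and 1.68, 1.77 and 1.82 in ALDH-negative cells, again without overlap, although all of these lie below the background limit.

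Wnt4, a ligand of female gonad development, was above background on all 6 arrays. It read 6.62, 6.91 and 5.71 in ALDH-positive and 8.35, 7.40 and 5.42 in ALDH-negative cells. The groups overlapped, pools 1 and 2 lying lower in ALDH-positive cells and pool 3 higher. The mean difference of -0.65 (SE 0.70) was within the spread between pools, and a second probe set gave -0.66. That second probe set read 5.20, 5.64 and 5.86 against 6.41, 6.30 and 5.96. It was lower in ALDH-positive cells in every pool and without overlap, as were 3.4% of all tested probe sets, with a difference of -0.10 in pool 3. Wnt5a, the best known ligand of the branch without beta-catenin, read 7.66, 7.73 and 9.31 in ALDH-positive cells. In ALDH-negative cells it read 8.70, 5.09 and 9.28, where the low value belongs to the array that stood apart. Its mean difference was 0.54 (SE 0.85) with that pool and -0.51 without it. Of the 4 tested probe sets of Wnt5a, each had a positive mean over 3 pools, and their means over pools 1 and 3 ran from -0.51 to 0.05.

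The other ligands were near the limit. Wnt5b, related to Wnt5a, read 3.40, 3.78 and 3.65 in ALDH-positive cells against 2.71, 4.03 and 3.31 in ALDH-negative cells (difference 0.26, SE 0.65, and 0.52 without pool 2). It lay higher in ALDH-positive cells in pools 1 and 3, but its probe set is of a type that may bind related transcripts, and its other tested probe set differed by -0.38. Wnt11, a ligand of cell movements in the embryo, read 3.71, 3.35 and 4.09 against 3.51, 6.02 and 4.14. These values were close together in pools 1 and 3, with a mean difference of 0.07 there against -0.84 (SE 0.79) over all pools. Wnt2b exceeded the limit in ALDH-positive cells of pools 1 and 2 alone (3.93 and 4.33, with 2.66 in pool 3), while ALDH-negative cells read 2.22, 4.27 and 2.76. Wnt6 and Wnt7b lay within 1 log2 unit of the limit on the 5 arrays other than the ALDH-negative one of pool 2, and had differences of -0.70 (SE 0.69) for Wnt6 and -0.56 (SE 0.75) for Wnt7b, or -0.15 and 0.20 without pool 2. Wnt7b was above background on 1 ALDH-negative array and on no ALDH-positive one. Wnt2 was below the filter and below background, at 1.75, 1.85 and 2.38 in ALDH-positive cells against 1.63, 1.50 and 1.59 in ALDH-negative cells.

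Of the 8 ligands tested, 4 lay higher and 4 lower in ALDH-positive cells by their means, 1 lay higher in every pool (Wnt9a) and 1 lower in every pool (Wnt6). Their median difference was -0.15, and 0.14 without pool 2.

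All 10 receptors were tested and above background on all 3 ALDH-positive arrays and on the ALDH-negative arrays of pools 1 and 3. Fzd8, a Frizzled receptor of the canonical branch, separated the fractions when the outlying array was set aside. It read 3.94, 4.17 and 3.90 in ALDH-positive cells, against 4.66, 3.44 and 5.63 in ALDH-negative cells. Without the ALDH-negative array of pool 2 every ALDH-positive value was lower than every ALDH-negative value, and 7.02% of all tested probe sets behaved in this way. The mean difference over 3 pools was -0.57 (SE 0.73, 95% interval -2.28 to 1.14). Without pool 2 it was -1.23 (SE 0.45), with an unadjusted limma p of 0.038 and an adjusted p of 0.909, where 2.27% of all tested probe sets were lower at an unadjusted p below 0.05 and 2.29% higher (0 Wnt genes). Without the ALDH-negative array of pool 2 and with no pool block Fzd8 was again the 1 gene at an unadjusted p below 0.05, where 0.903% of probe sets were lower and 1.44% higher.

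Lrp5, a co-receptor of the canonical branch, read 5.43, 5.35 and 3.91 in ALDH-positive cells and 5.21, 6.70 and 5.999 in ALDH-negative cells. Pool 1 showed a small difference of 0.22 and pool 3 a difference of -2.09, so the mean of -1.07 (SE 0.72, unadjusted p = 0.179, limma) was uneven between pools. With array weights Lrp5 and Fzd8 passed at an adjusted p below 0.05, as did 10.9% of all tested probe sets, and pool 3 carried most of the weight. At an unadjusted p below 0.05 that fit had Fzd7 and Ccnd1 higher (11.9% of probe sets) and Fzd2, Fzd8 and Lrp5 lower (12.6%). Lrp6, its closest relative, was much steadier, at 6.76, 7.07 and 6.65 against 6.88, 7.01 and 6.11, and its difference was 0.16 (SE 0.64, 95% interval -1.33 to 1.66). A second probe set of Lrp6 differed by -0.42.

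Fzd2 had differences of opposite sign between pools, at 5.89, 5.88 and 4.53 in ALDH-positive cells and 4.67, 7.31 and 6.52 in ALDH-negative cells, and a mean difference of -0.73 (SE 0.81), or -0.38 without pool 2. Its 3 tested probe sets differed in sign (-0.73 to 0.99). Fzd7, a receptor studied in progenitor cells of several tissues, read 4.82, 4.31 and 5.28 against 5.23, 2.55 and 4.02. Its difference of 0.87 (SE 0.72) came to 0.42 without pool 2, with opposite signs in pools 1 and 3. Fzd4, which also serves the ligand norrin, read 4.24, 4.19 and 5.63 against 4.29, 2.27 and 4.81 (0.90, SE 0.70, and 0.38 without pool 2). In pool 1 these fractions of Fzd4 were level.

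Fzd1 read 5.86, 5.49 and 6.49 against 4.85, 6.27 and 6.04, higher in ALDH-positive cells in pools 1 and 3 and lower in pool 2 (mean 0.23, SE 0.69, and 0.73 without pool 2). Fzd3, which acts in axon guidance and planar polarity, was lower in ALDH-positive cells in all pools (4.54, 4.35 and 3.98 against 4.68, 5.88 and 4.50). Its difference was -0.73 (SE 0.67), or -0.34 without pool 2, and its 5 tested probe sets disagreed, from -0.73 to 1.05. Fzd5 had a difference of -0.01 (SE 0.65), or 0.15 without pool 2, and Fzd6 one of -0.19 (SE 0.72), or 0.42 without pool 2. In all, 4 receptors lay higher and 6 lower by their means, 0 higher in every pool and 1 lower in every pool (Fzd3).

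**Figure D2:**
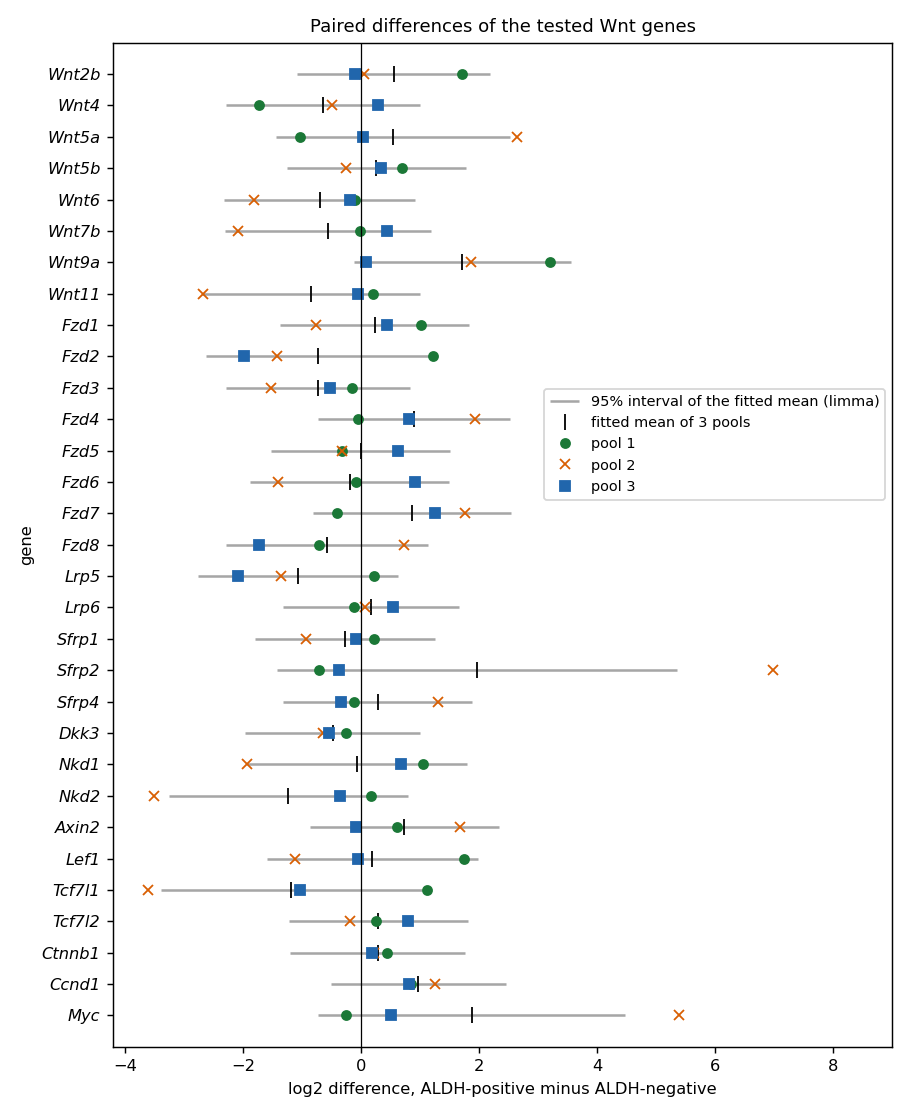
Log2 difference of ALDH-positive minus ALDH-negative cells for each of the 31 tested Wnt genes, with a green circle for pool 1, an orange cross for pool 2, a blue square for pool 3, a black tick for the fitted mean and a grey line for its 95% interval (limma). Every interval spans 0, and the crosses of pool 2 lie farthest out for Sfrp2 (6.98), Myc (5.38), Tcf7l1 (-3.61) and Nkd2 (-3.51).

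Among the secreted inhibitors, Sfrp2, a decoy protein that binds Wnt ligands, was far above background on 5 arrays. It read 8.49, 9.07 and 9.13 in ALDH-positive cells, and 9.19, 2.08 and 9.51 in ALDH-negative cells. Leaving out the array at 2.08, every ALDH-positive value was lower than the ALDH-negative ones, by 0.71 in pool 1 and 0.38 in pool 3. The mean difference therefore changed sign, at 1.97 (SE 1.45) with pool 2 and -0.54 without it. Sfrp4, a relative of Sfrp2, had the same order of values in pools 1 and 3, at 6.74, 6.67 and 6.47 against 6.85, 5.37 and 6.81, and differed by 0.28 (SE 0.68), or -0.23 without pool 2.

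Dkk3, a member of the Dickkopf family that unlike Dkk1 does not act through Lrp6, was lower in ALDH-positive cells in every pool and without overlap. It read 4.13, 4.37 and 4.18, against 4.38, 5.01 and 4.72 in ALDH-negative cells. The mean difference was -0.48 (SE 0.63), with an unadjusted limma p of 0.474, and -0.40 without pool 2. The pool differences of Dkk3 had an SD of 0.20, while the SE borrows from the spread of all probe sets and is larger than that. Its second tested probe set differed by 0.01. Sfrp1 was near the limit on every array other than the ALDH-negative one of pool 2 (2.53 to 2.91 in ALDH-positive and 2.66 and 3.01 in ALDH-negative cells). Dkk1 and Dkk2, which block or modulate Lrp6, and Wif1, which binds Wnt ligands directly, read at most 1.46 in ALDH-positive cells and at most 2.25 in ALDH-negative cells and were not tested. At these levels a difference between the fractions was not detectable.

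Axin2, a scaffold of the complex that degrades beta-catenin and a widely used readout of canonical signalling, was above background on every array but the ALDH-negative one of pool 2. It read 7.20, 7.21 and 6.32 in ALDH-positive cells, against 6.59, 5.54 and 6.40 in ALDH-negative cells. The fractions overlapped, with ALDH-positive cells higher by 0.61 in pool 1 and lower by 0.08 in pool 3. The mean difference was 0.73 (SE 0.68, 95% interval -0.87 to 2.33), and 0.26 without pool 2. A second probe set of Axin2 differed by 0.06, and by -0.47 without pool 2, so that the probe sets did not give Axin2 a common direction in pools 1 and 3.

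Nkd1, an inhibitor of Dishevelled induced by canonical signals, read 3.77, 4.07 and 4.16 in ALDH-positive cells and 2.71, 6.01 and 3.48 in ALDH-negative cells. Setting aside the array at 6.01, the ALDH-positive values of Nkd1 were all higher, as were those of 6.72% of all tested probe sets. The mean was -0.07 (SE 0.80) over 3 pools and 0.86 without pool 2, and the 4 tested probe sets of Nkd1 had means between 0.46 and 0.86 in pools 1 and 3. Nkd2, its relative, read 3.34, 3.23 and 3.95 against 3.17, 6.74 and 4.31, and differed by -1.23 (SE 0.87), or -0.09 without pool 2.

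Sp5, a transcription factor gene whose promoter is printed above, is a direct target of beta-catenin in mouse embryos. It read 2.86, 3.21 and 2.67 in ALDH-positive cells, against 1.74, 2.78 and 1.96 in ALDH-negative cells. The ALDH-positive value was higher in each pool, by 1.12, 0.43 and 0.71, yet only the value of 3.21 exceeded the background limit of its array, and the gene fell below the filter and was not tested. Notum, an enzyme that inactivates Wnt ligands by removing their lipid, read 2.48, 2.53 and 2.68 against 2.12, 3.89 and 2.27, all below background.

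The nuclear effectors were present in both fractions. Ctnnb1 read 9.88, 9.74 and 9.53 in ALDH-positive cells and 9.44, 9.52 and 9.34 in ALDH-negative cells. The values did not overlap, but the difference was small, at 0.28 (SE 0.63, 95% interval -1.20 to 1.76). Other probe sets of Ctnnb1 gave 1.76 and 0.82, and 0.06 and -0.49 without pool 2. In both fractions of pool 3 these probe sets read 3.01 to 5.69, against 6.35 to 8.03 in pool 1. This is the pool with the high 3' minus 5' signal of Gapdh, and the part of RNA integrity in it was not tested.

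Lef1, a partner of beta-catenin that is also its target, read 4.93, 4.85 and 5.31 in ALDH-positive cells against 3.18, 5.96 and 5.37 in ALDH-negative cells. The ALDH-positive values were close together and the ALDH-negative ones ranged widely, and the difference of 0.19 (SE 0.77) was 1.74 in pool 1 and -0.06 in pool 3, and 0.84 without pool 2. Tcf7l1, which mostly represses targets, read 5.19, 5.00 and 5.51 against 4.08, 8.61 and 6.55. Its difference of -1.18 (SE 0.95) was 0.04 without pool 2, with opposite signs in pools 1 and 3. Tcf7l2, the main factor of the gut epithelium, read 5.68, 4.64 and 6.94 against 5.42, 4.82 and 6.14, a difference of 0.29 (SE 0.65), or 0.53 without pool 2. Its other tested probe sets differed by 1.08 and 0.05, or 0.16 and -0.46 without pool 2.

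Ccnd1, the gene of cyclin D1 that drives entry into the cell cycle, was higher in ALDH-positive cells by a similar amount in each pool. It read 5.02, 4.39 and 4.73 in ALDH-positive cells, against 4.17, 3.14 and 3.92 in ALDH-negative cells. The values did not overlap, and the pool differences were 0.84, 1.25 and 0.81. The mean difference was 0.97 (SE 0.64, 95% interval -0.52 to 2.45), a fold of 1.96, with an unadjusted limma p of 0.169 and an adjusted p of 0.895. Without pool 2 it was 0.83. Its other tested probe sets differed by 0.44 and 0.55, in the same direction, with values that overlapped between the fractions.

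Myc, a growth regulator and canonical target in the gut, read 9.15, 9.20 and 10.02 in ALDH-positive cells and 9.41, 3.83 and 9.51 in ALDH-negative cells. Its mean difference of 1.88 (SE 1.11) came from the value of 3.83, and was 0.12 without pool 2. In pools 1 and 3 Myc was thus level between the fractions within 0.51.

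**Figure D3:**
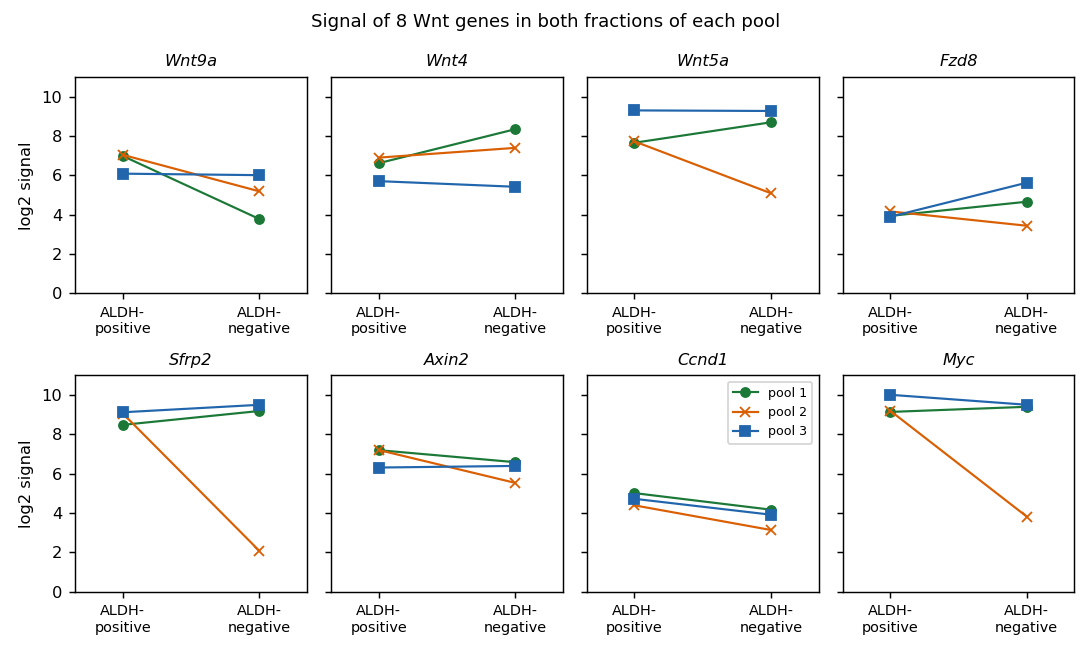
Log2 signal of 8 Wnt genes in ALDH-positive (left) and ALDH-negative cells (right), with a line joining the fractions of a pool (green circles pool 1, orange crosses pool 2, blue squares pool 3). Ccnd1 slopes down to the ALDH-negative side in all 3 pools, Wnt9a does so steeply in pools 1 and 2 and by 0.08 in pool 3, and the steep lines of Sfrp2 and Myc belong to pool 2 alone.

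Of the 31 tested genes, 3 were higher in ALDH-positive cells in all 3 pools (Wnt9a, Ctnnb1 and Ccnd1), where 11.5% of all tested probe sets were. Another 3 were lower in all pools (Wnt6, Fzd3 and Dkk3), where 10.8% were. Values did not overlap for 3 genes that were higher (Wnt9a, Ctnnb1 and Ccnd1, against 3.49% of all tested probe sets) and for 1 that was lower (Dkk3, against 3.4%). The shares in all 3 pools are thus near those of all probe sets. In pools 1 and 3 taken alone, 7 genes were higher in both (25.7% of all tested probe sets) and 6 were lower in both (26.4%). The median difference of the 31 genes was 0.16, against -0.04 over all tested probe sets, and the medians of the genes in pools 1 to 3 were 0.17, -0.32 and 0.03.

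Several probe sets were tested for 15 of the genes, and for 9 of these their mean differences over 3 pools had the same sign. They differed in sign for the other 6, namely Wnt5b, Fzd2, Fzd3, Lrp6, Dkk3 and Nkd1. These means include the outlying array of pool 2. By the means of pools 1 and 3, the probe sets of Wnt5a, Nkd2, Axin2, Tcf7l2 and Ctnnb1 differed in sign too. Those of Wnt5b (0.20 to 0.52) and Nkd1 (0.46 to 0.86) were then all positive. The probe sets of Wnt4 gave -0.65 and -0.66, and those of Ccnd1 were all positive.

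**Figure D4:**
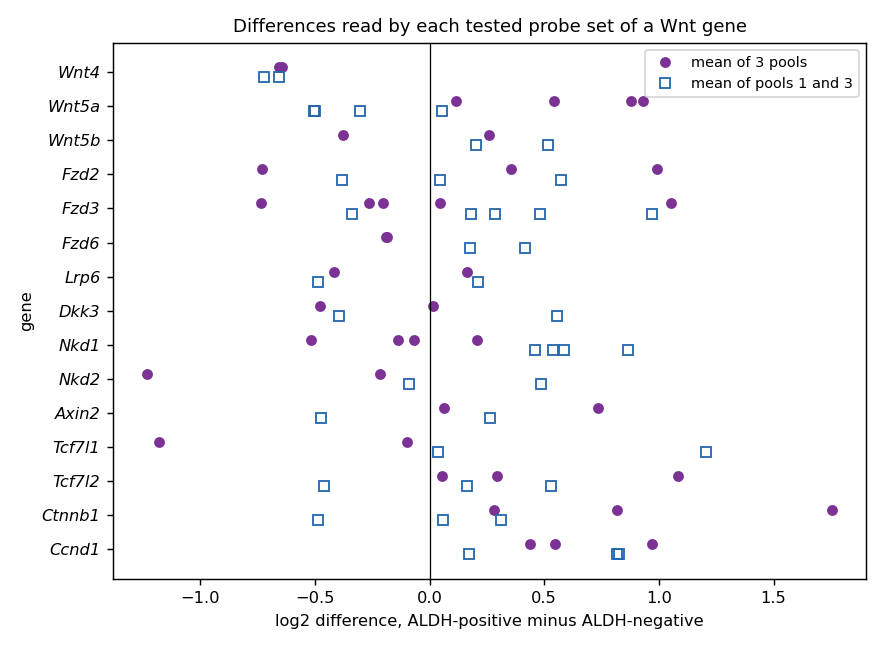
Log2 difference of ALDH-positive minus ALDH-negative cells from each tested probe set of the 15 Wnt genes that have several, as the mean of 3 pools (filled circles) and of pools 1 and 3 (open squares). Ccnd1 lies above 0 and Wnt4 below 0 for every probe set by both means, and Fzd3 spreads from -0.73 to 1.05 over 3 pools.

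Further genes of the pathway were taken from a list of 85 names that holds the remaining ligands and receptors, the destruction complex, R-spondins with their receptors, and polarity genes. Of these, 82 had a probe set and 69 were tested. None passed at an adjusted p below 0.05 (limma), and at an unadjusted p below 0.05 there were 3 higher (Rspo1, Lgr5 and Ccn4), where 2.04% of all tested probe sets were higher, and 1 lower (Apcdd1), where 0.403% were lower. By their means 27 lay higher and 42 lower, with a median of -0.24, and 0.31 without pool 2.

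Rspo1, a secreted amplifier of Wnt signals, read 5.60, 5.66 and 7.09 in ALDH-positive cells against 1.30, 2.85 and 3.21 in ALDH-negative cells (difference 3.67, SE 0.67), where only the value of pool 3 was above background. Its receptor Lgr5 read 3.79, 5.61 and 4.36 against 1.38, 1.55 and 1.18, which were not above background on any ALDH-negative array. Its means were 4.59 and 1.37 (adjusted p = 0.895, limma). Set against the mean of the background limits of the ALDH-negative arrays, the ALDH-positive mean of Lgr5 was at least 1.73-fold higher. This bound is one of means only, since in pool 2 the ALDH-positive value of 5.61 lay below the ALDH-negative limit of 5.78. Ccn4, first described as a gene induced by Wnt1, was without overlap as well, at 5.90, 6.37 and 7.02 in ALDH-positive cells and 3.30, 2.60 and 5.11 in ALDH-negative cells. Its difference was 2.76 (SE 0.69, with an unadjusted limma p of 0.0046 and an adjusted p of 0.895), and 2.26 without pool 2.

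Apcdd1, a membrane inhibitor of Wnt signals, was lower in ALDH-positive cells of every pool, at 3.02, 3.14 and 5.44 against 4.95, 8.32 and 6.25 (difference -2.63, SE 0.93). Without pool 2 the difference of Apcdd1 was -1.36. Bambi, a decoy receptor for TGF-beta that beta-catenin can induce, read 4.63, 4.32 and 4.70 against 4.10, 2.30 and 2.66, a difference of 1.53 (SE 0.68), or 1.28 without pool 2, with 1 of the 3 ALDH-negative values above background. Celsr1 and Daam1, which act in planar polarity, had differences of 1.32 (SE 0.68) for Celsr1 and 1.28 (SE 0.67) for Daam1, positive in each pool, or 0.86 and 1.497 without pool 2. Wls, the carrier that brings Wnt ligands to the cell surface, differed by 4.32 in pool 2 but by 0.29 and 0.19 in pools 1 and 3. These 8 genes were selected by unadjusted p among those with the same sign in all pools, so their directions are a description.

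**Figure D5:**
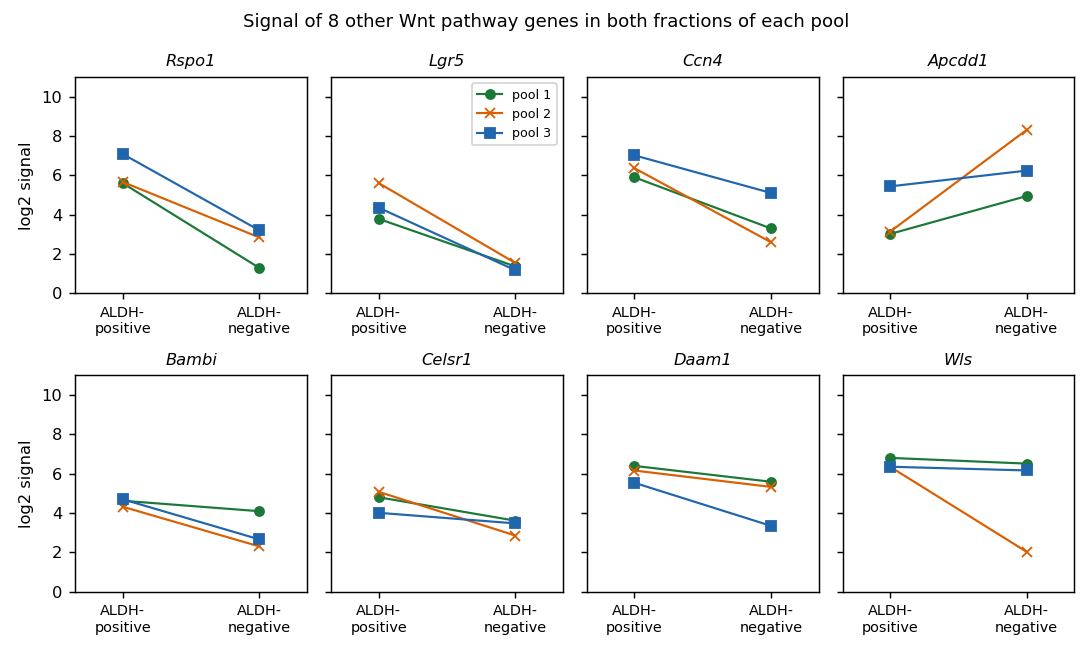
Log2 signal of 8 other Wnt pathway genes in ALDH-positive (left) and ALDH-negative cells (right), with a line joining the fractions of a pool (green circles pool 1, orange crosses pool 2, blue squares pool 3). Rspo1, Lgr5 and Ccn4 lie higher in ALDH-positive cells in all pools without overlap, and Apcdd1 lies lower in each.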

How the data were processed

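The deposited table holds log2 values of 45101 probe sets from 6 arrays. How the authors summarised and normalized them is not given in the sources used here, and log2 was inferred from the range (0.035 to 13.06). Per the labels' protocols, Ovation Pico WTA amplification preceded labelling. The series design names GeneSifter and a paired SAM analysis, and SAM was not run here. Because array medians differed by 0.46, arrays were quantile normalized without the 64 control probe sets. Controls were read as deposited. Gene names came from GEO's annotation of the platform, updated by Entrez identifier, and 34945 of 45037 had 1 symbol, 932 several and 9160 none. The lower 40% by mean (level 2.73) were left out, and limma 3.58.1 in R 4.3.3 (lmFit, eBayes, two-sided) was fitted to 27022 probe sets with the pool as a block. The pairing comes from the series design. Deviations of same-numbered arrays correlated at 0.38, -0.19 and 0.35. Those of arrays of different number ran from -0.47 to 0.42, the highest for ALDH-positive pool 2 with ALDH-negative pool 1. These values therefore do not bear out the pairing of pool 2. With 3 pairs an exact sign-flip test cannot go below p = 0.25. The fit was tested on simulated data. Their noise was set below that of these arrays and no array stood apart, so the outcome does not carry over to these data. The number of arrays limits the precision. All 38 members are named whatever their values. Of the other pathway genes, the 8 of smallest unadjusted p with 1 sign in all pools are named. The members and lists were chosen with earlier results of these data known.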

Additional observations from a re-analysis of the deposited data

How the results depend on the processing

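The number of Wnt genes at an adjusted p below 0.05 was 0 under every alternative except array weights, which called 2 (Fzd8 at -1.46, adjusted p = 0.0217, and Lrp5 at -1.60, adjusted p = 0.0232) and 2953 of all tested probe sets. In a paired fit of 3 pools both arrays of a pool get the same weight, here 1.30, 0.16 and 4.87 for pools 1 to 3, so those calls lean on pool 3. Leaving out each pool gave 0 to 7 calls over all probe sets (7 without pool 1) and 1 to 3 Wnt genes at an unadjusted p below 0.05 (Sfrp2 and Myc without pool 1, where 7.26% of all tested probe sets were, Fzd8 without pool 2, where 4.56% were, and Wnt9a, Sfrp2 and Myc without pool 3, where 3.49% were). That count was 1 in the values as deposited (2.96% of all probe sets), in median-centred arrays (2.63%) and with no replicate block (2.01%; Wnt9a, with an unadjusted limma p of 0.046 without the block), 1 without the filter (Ccnd1; 2.02%), 1 without the ALDH-negative array of pool 2 (Fzd8; 2.34%) and 5 with array weights (24.5%). The replicate block changed no other call. The adjusted p of Wnt9a ran from 0.359 to 0.9998. The median over the 31 genes was 0.45 with median-centred arrays and ran from -0.10 to 0.15 when each pool was left out. Above the 99th percentile of the silent receptors there were 17 genes on all ALDH-positive and 5 on all ALDH-negative arrays, and 23 on all ALDH-negative arrays by the filter level. That percentile was highest on the ALDH-positive array of pool 3 (5.28) and the ALDH-negative array of pool 2 (6.91). Of the 69 other pathway genes, 3 to 7 were higher and 1 to 3 lower at an unadjusted p below 0.05 when each pool was left out. These were 4 and 3 without pool 1 (5.18% and 2.08% of all probe sets), 7 and 1 without pool 2 (2.29% and 2.27%) and 3 and 1 without pool 3 (3.26% and 0.237%). They were 5 and 0 without the ALDH-negative array of pool 2 (1.44% and 0.903%), 6 and 1 without the filter (1.4% and 0.617%) and 15 and 4 with array weights (11.9% and 12.6%).

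Direction held under every alternative for 11 of the 31 genes, among them Wnt9a, Ccnd1, Ctnnb1, Dkk3, Axin2 and Lrp5. It turned under at least 1 for 20. Apart from the mean over probe sets, the alternatives read the same single probe set of each gene. Without pool 2, another tested probe set went the other way for Axin2 (-0.47), Dkk3 (0.56) and Ctnnb1 (-0.49). Leaving out each pool gave -0.023 to 0.88 for Wnt2b, -0.51 to 1.33 for Wnt5a, -1.05 to 0.20 for Wnt7b, -1.36 to 0.073 for Wnt11, -0.16 to 0.73 for Fzd1, -0.32 to 0.15 for Fzd5, -0.74 to 0.42 for Fzd6, -1.23 to 0.0038 for Fzd8, -0.025 to 0.30 for Lrp6, -0.52 to 0.059 for Sfrp1, -0.54 to 3.30 for Sfrp2, -0.23 to 0.59 for Sfrp4, -0.63 to 0.86 for Nkd1, -0.59 to 0.84 for Lef1 and -2.32 to 0.035 for Tcf7l1. With that array of pool 2 left out and no block, Wnt5a stood at -0.76, Wnt7b at 0.073, Fzd6 at 0.063, Sfrp2 at -0.46, Sfrp4 at -0.21, Nkd1 at 0.90, Tcf7l2 at -0.026 and Myc at -0.0027. With array weights, Wnt5a stood at -0.12, Wnt7b at 0.27, Fzd5 at 0.40, Fzd6 at 0.65, Sfrp2 at -0.26, Sfrp4 at -0.26 and Nkd1 at 0.69. Values as deposited gave 0.20 for Fzd5, 0.23 for Fzd6 and 0.24 for Nkd1, and median-centred arrays 0.37, 0.39 and 0.40, and 0.086 for Wnt4. The mean over probe sets turned Wnt5b (-0.059), Fzd2 (0.20) and Lrp6 (-0.13). The cause of these turns was not tested. Genes near the background limit can show no difference at this signal.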
